A study of Mus musculus with 10 samples.

Results

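Epithelial cells are joined by tight junctions and desmosomes, and in skin they end as a cornified envelope of cross-linked protein. The mRNAs of these structures were followed here in grown mouse oocytes at the germinal vesicle (GV) stage, before meiosis resumes. Members were chosen by name: the claudins, the occludin (MARVEL) and zonula occludens genes, desmogleins, desmocollins, desmoplakin, plakophilins and plakoglobin, the envelope proteins, transglutaminases, and the epithelial regulators Elf3, Esrp1, Esrp2 and Epcam. Of 18194 genes named on the array, 76 were members (0.418%), covered by 120 probe sets. Each gene was read from its brightest probe set by the mean over all 10 samples, a value used only to pick the probe set and given below as a description.

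The comparison set 4 samples of non-transgenic mice against 6 samples of mice carrying a transgene that makes RNA interference against basonuclin in oocytes. Each array held RNA of 50 pooled oocytes of 1 mouse. Samples are named by the replicate number of their label, which is 1, 2, 7 or 8 for non-transgenic and 4, 5, 6, 11, 12 or 13 for transgenic mice. The sources used here do not give the promoter of the transgene, the number of transgenic lines or the strain and age of the mice.

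Claudins are membrane proteins that seal the space between neighbouring epithelial cells or form charge-selective pores in it, and the zonula occludens scaffold holds them at the membrane. In desmosomes the cadherins of the desmoglein and desmocollin families bind across the gap, and plakoglobin, plakophilins and desmoplakin tie them to keratin filaments. The cornified envelope forms when transglutaminases cross-link involucrin, loricrin and the small proline-rich and late envelope proteins beneath the keratinocyte membrane. Basonuclin itself is a zinc finger protein known from keratinocytes and germ cells.

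All values are log2 intensities as the authors' GCRMA processing gave them, and a gene was tested where it lay above log2 5 in at least 4 arrays. A level just above 5 does not show that the mRNA is present, since the values carry no detection call. The targeted gene Bnc1 averaged 11.57 ± 0.15 (SD, n = 4) in non-transgenic samples. In transgenic samples it averaged 3.85 ± 0.21 (SD, n = 6). It was thus lower by at least 95.1-fold (limma adjusted p = 2.65e-11), and every sample matched its label. All 10 oocyte markers examined, among them Zp3 and Gdf9, were above log2 5 in every sample. Array medians lay between intensities of 17.5 and 20.1. The difference between the 3' and 5' control probe sets of Gapdh, a sign of RNA length, ranged from 3.72 to 4.34 in non-transgenic and from 3.63 to 4.12 in transgenic samples. That of beta-actin stood at 5.13 in transgenic replicate 6 and between 3.40 and 4.01 in the other samples.

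Of the 76 members, 38 passed the filter and were tested. In limma, 11 of them rose and 2 fell in transgenic oocytes at a Benjamini-Hochberg adjusted p below 0.05, and 25 did not pass. Among all 10591 genes tested, 18.9% rose and 18.3% fell, against 28.9% and 5.26% of the tested members. The members were chosen with earlier results of these data known, so this contrast is a description and no test. At least 2-fold, 8 members rose and 0 fell, where 6.63% and 2.35% of all genes did. The median log2 change was 0.07 over the tested members and -0.03 over all genes tested. The groups did not overlap for 14 of the tested members, 11 of them higher and 3 lower, where 14.8% and 13.1% of all genes tested were of these kinds. These shares are limited by the filter, since 2 of the tested members, Tgm1 and Marveld3, lay below it in every non-transgenic sample and could pass only through the transgenic ones. Of the other members that rose, Cldn10, Dsg1a, Sprr1a and Esrp2 were above it in 1, 2, 3 and 3 of the 4 non-transgenic samples. As the filter asks for 4 arrays, these too needed transgenic samples to pass, which favours members that rose. With whole samples of oocytes, more RNA per oocyte and more RNA from a few cells cannot be told apart.

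**Figure D1:**
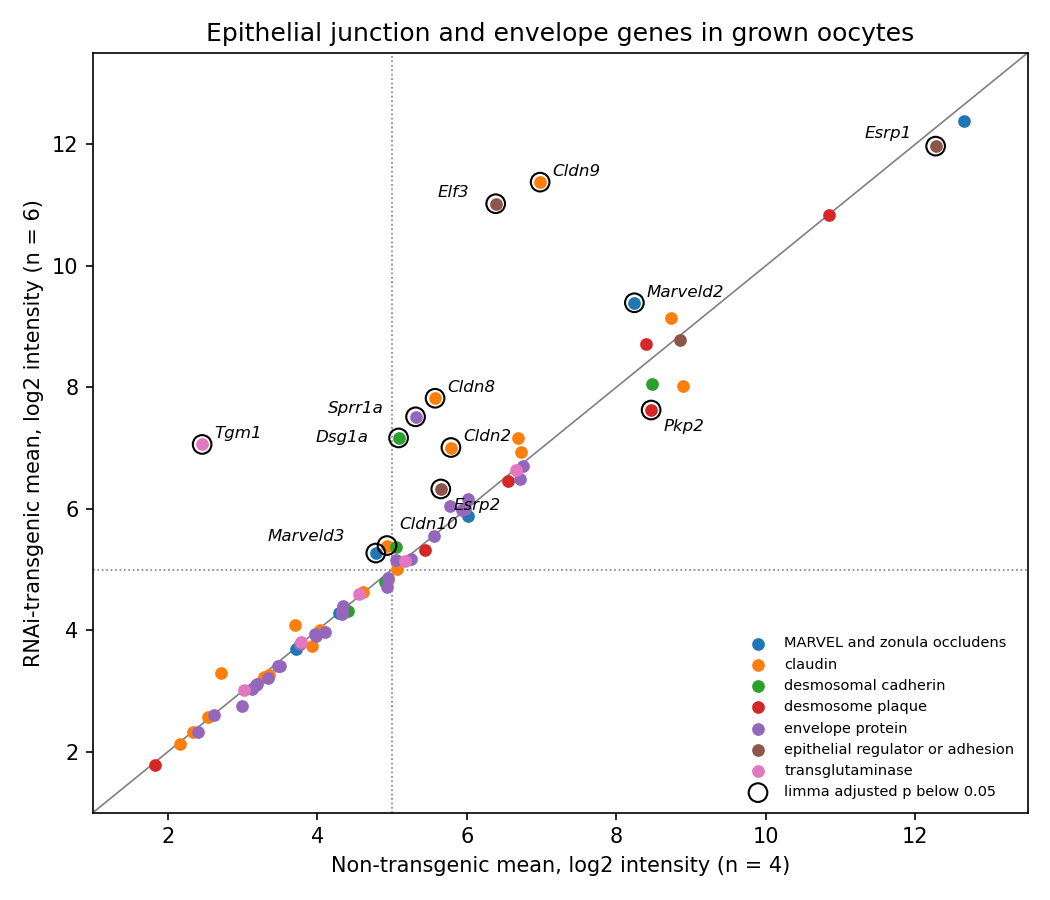
Mean log2 intensity of each of the 76 members in 4 non-transgenic (x axis) and 6 RNAi-transgenic samples (y axis), coloured by role, with the diagonal of equal level, dotted lines at the filter level of 5 and rings around the 13 members past the threshold. Elf3, Cldn9 and Tgm1 lie farthest above the diagonal, and most members below 5 lie close to it.

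The other 38 members were not tested. Of these, 34 were below log2 5 on every array, with means over the 10 samples from 1.80 for Pkp1, a plakophilin of skin, to 4.62 for Cldn19. Just outside the filter, Lor and Cldn1 were above log2 5 on 1 array each and Dsg2 and Lce1m on 2 arrays each. Just inside it, Marveld3 was above on 4 arrays.

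Elf3, an ETS-family transcription factor of epithelia, was low in every non-transgenic and high in every transgenic sample. Non-transgenic replicates 1, 2, 7 and 8 stood at log2 7.24, 6.09, 6.45 and 5.76, and the transgenic samples ran from 10.82 over a median of 11.00 to 11.33. The groups did not overlap. Elf3 rose by 4.63 (SE 0.24), or 24.8-fold (limma adjusted p = 1.07e-07), and its mean intensity went from 90.3 to 2093. The call held in all 25 other fits made of this gene, with adjusted p from 2.15e-08 to 0.00179.

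Esrp1 and Esrp2 encode splicing regulators of epithelial cells and moved in opposite directions. Esrp1 stood at 12.32, 12.26, 12.27 and 12.25 in the non-transgenic samples and between 11.77 and 12.22, with a median of 11.94, in the transgenic ones. Every transgenic sample was thus below every non-transgenic sample, although by little. Esrp1 fell by 0.30 on the log2 scale (SE 0.08, limma adjusted p = 0.0112), a call not reached within the samples numbered 7 to 13 (adjusted p = 0.265), with a range of adjusted p over its other fits from 0.00157 to that value. Esrp2 stood at 5.71, 4.85, 5.95 and 6.11 in non-transgenic samples and from 6.13 over 6.32 to 6.63 in transgenic ones. It was above the filter in 3 of 4 non-transgenic samples and rose at least 1.55-fold (limma adjusted p = 0.0289). That call was lost without non-transgenic replicate 1 (adjusted p = 0.0508), transgenic replicate 4 (0.0571), transgenic replicate 13 (0.0525) or transgenic replicates 12 and 13 together (0.0898). It was also lost within either number range (0.0609 and 0.186), over a range from 0.0148 to 0.186. A dimmer Esrp2 probe set lay below 5 in all samples.

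Epcam, an adhesion molecule of epithelia, was at 8.96, 8.89, 8.64 and 8.90 in non-transgenic samples and from 8.67 over 8.78 to 8.93 in transgenic ones. The groups overlapped, and the difference of -0.07 (SE 0.09) did not pass (limma adjusted p = 0.587). Its dimmer probe set lay below 5 in all samples (means 3.43 and 3.49).

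**Figure D2:**
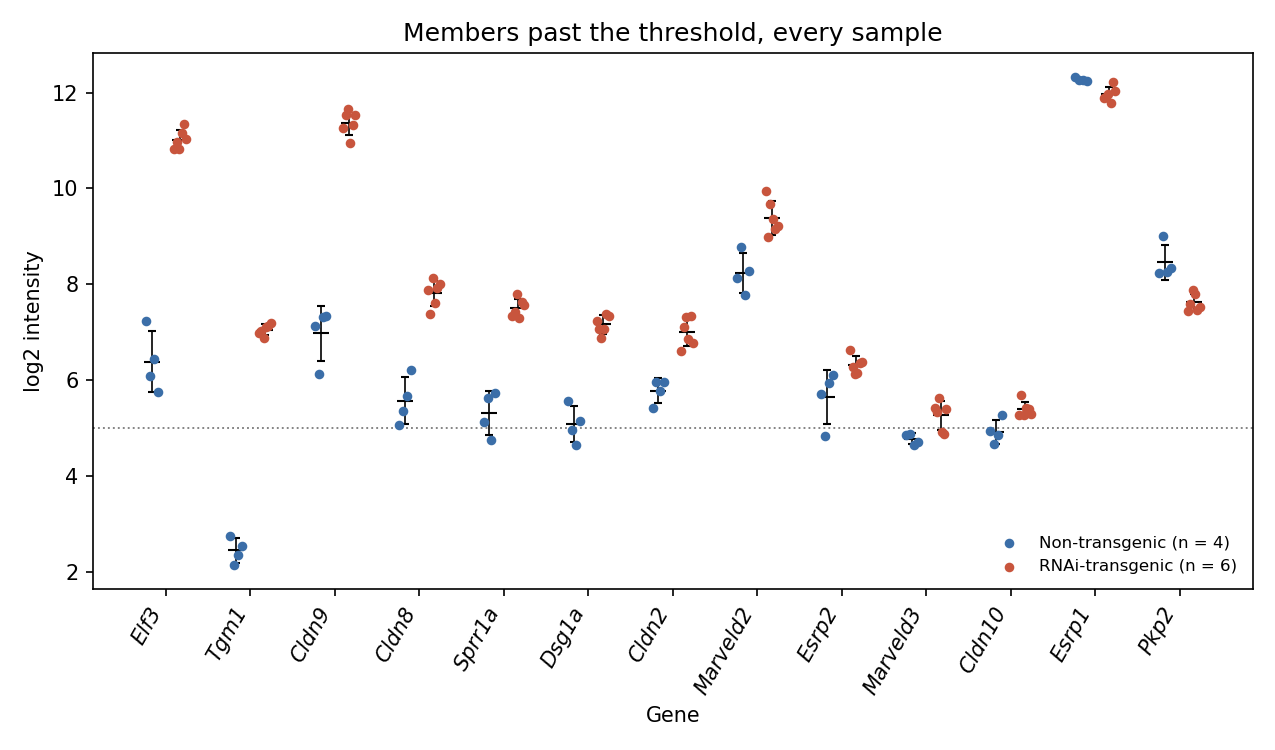
Log2 intensity (y axis) of the 13 members past the threshold (x axis, ordered by fitted change) in each non-transgenic (blue, n = 4) and RNAi-transgenic (red, n = 6) sample, with means, SD bars and a dotted line at the filter level of 5. The 11 members on the left are higher in every transgenic sample, and Esrp1 and Pkp2 are lower.

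Among 20 claudins, 9 were tested, of which 4 rose, 0 fell at adjusted p below 0.05 in limma and 5 did not pass, where 18.9% of all genes tested rose and 18.3% fell. At an unadjusted p below 0.05, 5 of the 9 passed, as did 46.0% of all genes tested. The claudin that changed most was Cldn9, known from the inner ear and other tight epithelia. It stood at 7.13, 6.14, 7.31 and 7.34 in the non-transgenic samples and from 10.95 over 11.43 to 11.65 in the transgenic ones. These ranges lie far apart. Cldn9 rose by 4.39 (SE 0.23), or 21.0-fold (limma adjusted p = 1.14e-07), and its mean intensity went from 133 to 2688. A dimmer Cldn9 probe set was below 5 in every non-transgenic sample and above it in 4 of 6 transgenic samples. Its means were 3.62 and 5.13, a description only, since it passed the filter through the transgenic samples alone.

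Cldn8, a barrier-forming claudin of the kidney and colon, stood at 5.07, 5.35, 5.67 and 6.21 in non-transgenic samples. In transgenic samples it ran from 7.38 over 7.90 to 8.13, above all of those. It rose by 2.24 (SE 0.22, 4.74-fold, limma adjusted p = 1.45e-05). Cldn2, which forms a cation pore in leaky epithelia such as the proximal tubule, stood at 5.42, 5.97, 5.79 and 5.97 in non-transgenic samples. Its transgenic samples ran from 6.62 over 6.99 to 7.34, again with no overlap. Cldn2 rose by 1.22 (SE 0.17, 2.33-fold, limma adjusted p = 2.18e-04), while its other probe set lay below 5 in every sample (means 3.18 and 3.27). Cldn9, Cldn8 and Cldn2 kept their calls in all other fits made except that Cldn2 did not pass Holm adjustment.

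Cldn10, a pore-forming claudin, lay near the filter, at 4.94, 4.67, 4.85 and 5.27 in non-transgenic and from 5.29 over 5.34 to 5.69 in transgenic samples. It was above 5 in 1 of 4 non-transgenic samples and rose at least 1.25-fold (limma adjusted p = 0.0113). Within the samples numbered 1 to 6 or 7 to 13 it did not pass (adjusted p = 0.0607 and 0.195), over a range from 0.00247 to 0.195.

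Of the claudins that did not pass, Cldn4, a barrier claudin, was at 7.09, 6.18, 6.66 and 6.81 in non-transgenic and from 6.64 over 7.18 to 7.76 in transgenic samples. The groups overlapped, and its difference of 0.49 (SE 0.22) had a limma adjusted p of 0.105, which went to 0.0468 without transgenic replicate 11 and ranged up to 0.462. Cldn15, a cation pore of the intestine, was at 7.90, 9.91, 8.71 and 8.40 against a range from 8.83 over 9.09 to 9.52. Non-transgenic replicate 2 stood above all transgenic samples and replicates 1, 7 and 8 below them. The difference of 0.42 (SE 0.33, limma adjusted p = 0.352) was 0.81 without non-transgenic replicate 2 (adjusted p = 0.0177), over a range from 0.0177 to 0.974. Cldn14 and Cldn22 differed by 0.21 and -0.06 and did not pass.

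**Figure D3:**
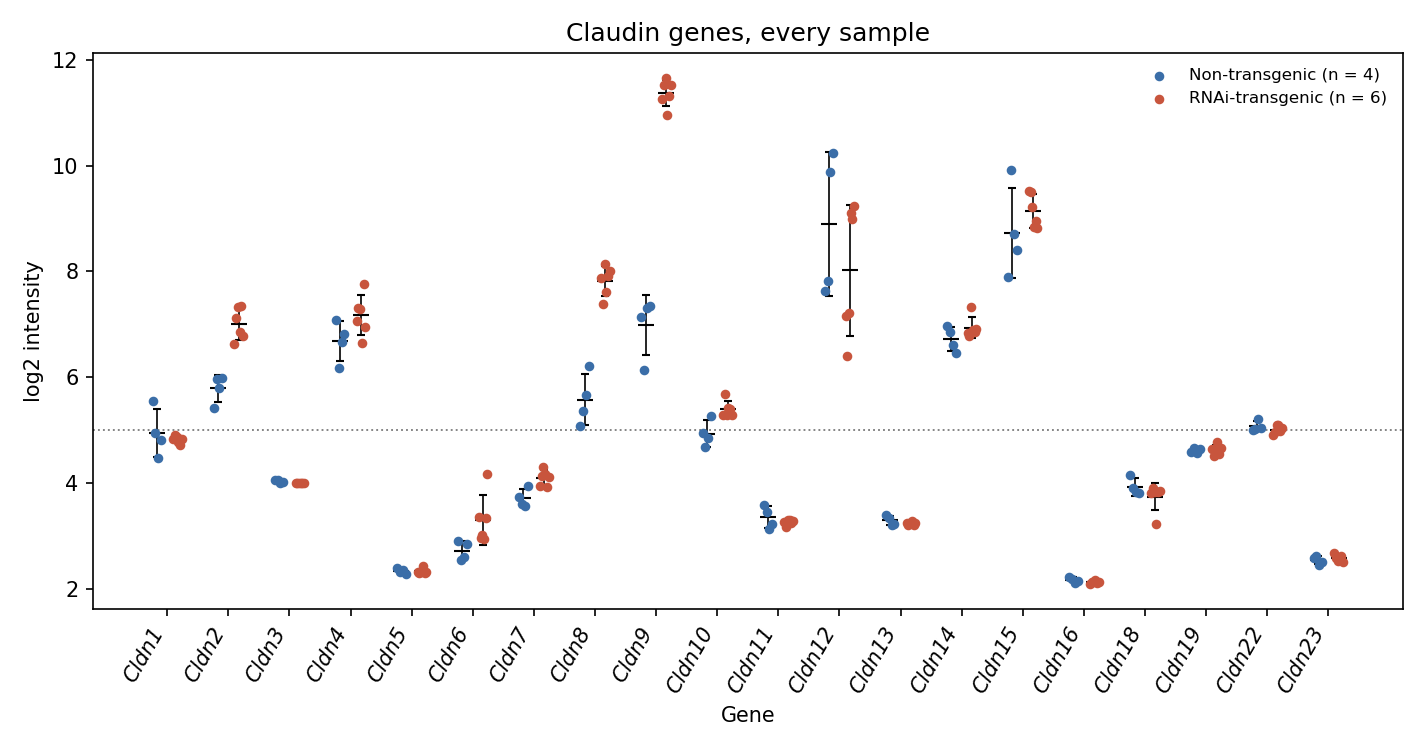
Log2 intensity (y axis) of the 20 claudin genes (x axis) in each non-transgenic (blue, n = 4) and RNAi-transgenic (red, n = 6) sample, with means, SD bars and a dotted line at the filter level of 5. Cldn2, Cldn8 and Cldn9 separate by genotype, while the points of Cldn12 form an upper and a lower cluster in both groups.

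Cldn12, a claudin lacking the usual C-terminal binding motif for scaffold proteins, varied with the replicate number more than with genotype. It stood at 7.64 and 7.82 in non-transgenic replicates 1 and 2 but at 9.88 and 10.24 in replicates 7 and 8. Transgenic replicates 4, 5 and 6 were at 7.16, 6.40 and 7.22, and replicates 11, 12 and 13 at 9.10, 9.0 and 9.24. Higher numbers thus went with a level higher by 2.33 in non-transgenic and by 2.19 in transgenic samples, with no overlap in either group. No other tested member was without overlap between the number ranges in both groups. Over all samples Cldn12 differed by -0.88 between genotypes (SE 0.71, limma adjusted p = 0.367). Within the lower numbers the difference was -0.81 (adjusted p = 0.109) and within the higher ones -0.95 (adjusted p = 0.00991). With the number range as a covariate the adjusted p was 0.00206, the lowest of a range up to 0.694. The dimmer Cldn12 probe set gave the same pattern, at 4.53, 4.80, 6.79 and 6.98 in non-transgenic samples. No label calls the number ranges batches or says what the numbers stand for.

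**Figure D4:**
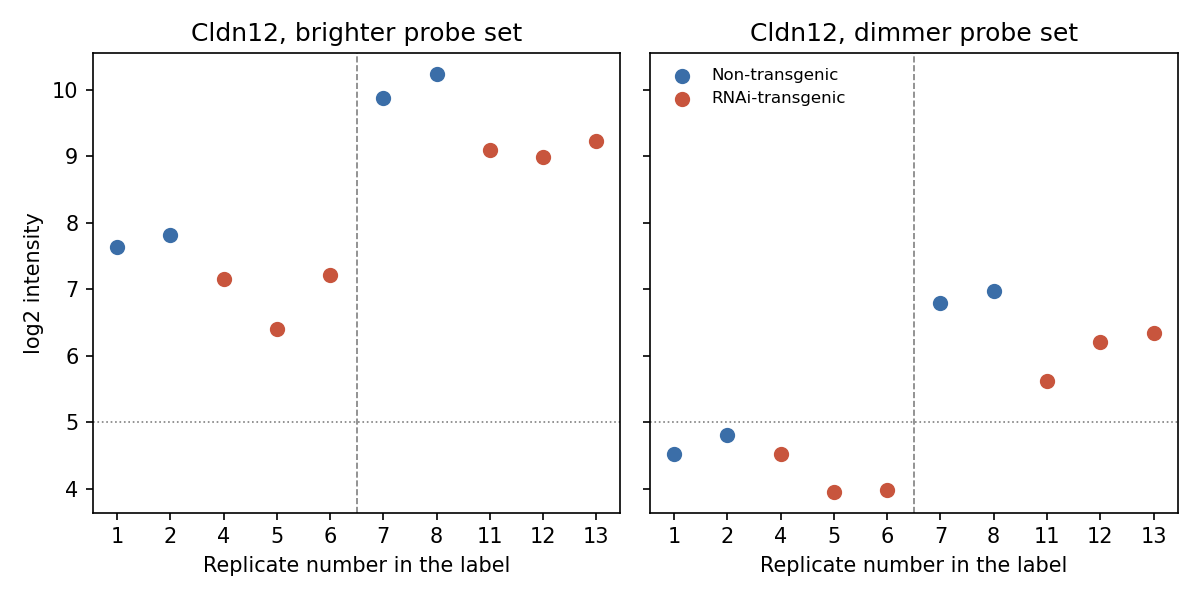
Log2 intensity (y axis) of both Cldn12 probe sets by the replicate number of the label (x axis), blue for non-transgenic and red for RNAi-transgenic samples, with a dashed line between numbers 6 and 7 and a dotted line at the filter level of 5. In both panels all samples numbered 7 to 13 lie above all samples numbered 1 to 6, and in the brighter probe set the non-transgenic samples lie above the transgenic ones on each side.

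Of 20 claudins, 11 were not tested, and 10 of them were below 5 on every array, among them Cldn3, Cldn5, Cldn6 and Cldn7. Cldn6, the direct neighbour of Cldn9 on the chromosome, averaged 2.72 and 3.29. Cldn7, a widespread epithelial claudin, averaged 3.71 and 4.09. Both sit where GCRMA draws dim probe sets together, so no change is read from them.

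The MARVEL proteins include occludin and sit at cell-cell contacts with the claudins. Marveld2, or tricellulin, seals the corners where 3 cells meet. It was at 8.12, 8.79, 7.77 and 8.28 in non-transgenic samples and from 8.99 over 9.29 to 9.95 in transgenic ones, without overlap. Marveld2 rose by 1.15 (SE 0.22, 2.22-fold, limma adjusted p = 0.00194). Within the samples numbered 1 to 6 it did not pass (adjusted p = 0.0898), the highest of a range from 9.55e-04. Occludin (Ocln), whose gene lies beside Marveld2, was below 5 on every array (means 4.29 and 4.28). Marveld3 was below 5 in all non-transgenic samples, at 4.87, 4.89, 4.66 and 4.71, and ran from 4.89 over 5.38 to 5.64 in transgenic samples. It was higher by at least 1.21-fold (limma adjusted p = 0.0209), a call lost without non-transgenic replicate 7 (adjusted p = 0.0586) or 8 (0.0531) and within the samples numbered 7 to 13 (0.170), over a range from 0.00640 to 0.170. Marveld3 passed the filter through 4 transgenic samples alone, so these p-values are a description only. Its other probe sets lay below 5 in every sample, with means of 3.42 and 4.06 for one and 1.78 and 1.77 for the other.

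Tjp1 encodes ZO-1, the scaffold that anchors claudins and occludin to actin. It was at 12.37, 12.79, 12.84 and 12.62 in non-transgenic samples and from 12.25 over 12.36 to 12.62 in transgenic ones, with overlap through non-transgenic replicate 1. The difference of -0.27 (SE 0.10) did not pass (limma adjusted p = 0.0524). It passed without non-transgenic replicate 1 (adjusted p = 0.00829) or transgenic replicate 5 (0.0255), with array weights (0.0273), with the stricter filter (0.0438) and within the samples numbered 7 to 13 (0.0189), over a range up to 0.678. Tjp3 was below 5 on every array, and Marveld1 differed by -0.14 (SE 0.11) without passing.

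Among 6 desmosomal cadherins, 1 rose, 2 were tested and did not pass and 3 were not tested, where 18.9% of all genes tested rose. Dsg1a, a desmoglein of the outer epidermis, stood at 5.57, 4.96, 4.66 and 5.15 in non-transgenic samples. In transgenic samples it ran from 6.89 over 7.15 to 7.39, above all of those. With 2 of 4 non-transgenic samples above the filter, Dsg1a rose at least 3.96-fold (limma adjusted p = 3.33e-06). Its near-identical neighbour Dsg1b averaged 4.41 and 4.32 and was below 5 on every array. The desmogleins are close copies, so the Dsg1a probe set may also read RNA of another copy.

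Dsc2, the desmocollin of simple epithelia, was at 8.07, 8.22, 8.69 and 8.92 in non-transgenic samples and from 7.86 over 8.07 to 8.24 in transgenic ones. The groups overlapped through non-transgenic replicates 1 and 2. The difference of -0.43 (SE 0.16) did not pass (limma adjusted p = 0.0632). It was -0.02 within the samples numbered 1 to 6 (adjusted p = 0.943) and -0.83 within those numbered 7 to 13 (adjusted p = 0.0167). The call was reached without non-transgenic replicate 1 (0.0183), with array weights (0.0235), after quantile normalization (0.0343) and with the mean of the gene's probe sets (0.0403). A dimmer Dsc2 probe set averaged 5.19 and 4.82, with overlap, and was above 5 in 3 non-transgenic samples and 1 transgenic sample. With each probe set fitted by itself it was lower in transgenic samples (limma adjusted p = 0.0337). Dsc1, a desmocollin of skin, differed by 0.32 (SE 0.14) near the filter level and did not pass (limma adjusted p = 0.0917). Dsg2 averaged 4.90 and 4.79.

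Of 6 genes of the desmosome plaque, 5 were tested. In limma 1 of them fell and 0 rose at adjusted p below 0.05, and 4 did not pass. At an unadjusted p below 0.05, 1 of the 5 passed. Of all genes tested, 18.3% fell, 18.9% rose and 46.0% had an unadjusted limma p below 0.05. Pkp2, a plakophilin of simple epithelia and heart, was at 8.24, 9.01, 8.27 and 8.34 in non-transgenic samples. Its transgenic samples ran from 7.45 over 7.56 to 7.89, below all of those. Pkp2 fell by 0.84 on the log2 scale (SE 0.16, limma adjusted p = 0.00194), and did not pass within the samples numbered 1 to 6 (adjusted p = 0.0620, the highest of a range from 0.00104). A dimmer Pkp2 probe set averaged 5.34 and 4.65, also without overlap, and the other two lay below 5 in all samples.

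Desmoplakin (Dsp), which links the plaque to keratin, was at 8.32, 8.47, 8.28 and 8.53 in non-transgenic and from 8.35 over 8.73 to 9.30 in transgenic samples. The groups overlapped, and the difference of 0.30 (SE 0.17) did not pass (limma adjusted p = 0.184). Pkp4, a relative of p120 catenin found at several kinds of junction, was at 10.54, 10.88, 10.87 and 11.07 against a range from 10.61 over 10.79 to 11.06. Its difference of -0.01 (SE 0.12, limma adjusted p = 0.955) was within the spread of the samples, and its other probe set differed by -0.07. Plakoglobin (Jup) differed by -0.09 (SE 0.14) and Pkp3 by -0.13 (SE 0.19), and neither passed.

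Transglutaminase 1 (Tgm1), the membrane-bound enzyme that cross-links the envelope of keratinocytes, was near the lowest values of the array in non-transgenic samples, at 2.76, 2.16, 2.37 and 2.55. In transgenic samples it ran from 6.89 over 7.08 to 7.20. The gap between the groups was wide and the transgenic samples lay close together. Against the filter level Tgm1 was higher by at least 4.17-fold (limma adjusted p = 5.21e-10), and it passed in all 25 other fits made of it. It was above the filter in 0 of 4 non-transgenic and in 6 of 6 transgenic samples. Tgm1 thus passed the filter through the transgenic samples alone, and these p-values are a description only. Tgm2, the tissue transglutaminase, and Tgm4, known from the prostate, differed by -0.03 and -0.02 and did not pass. Tgm3 and Tgm5, both epidermal enzymes, and Tgm6 were below 5 on every array.

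Of 28 envelope protein genes, 1 rose, 9 tested ones did not pass and 18 were not tested, where 18.9% of all genes tested rose. Sprr1a, a small proline-rich envelope protein known to be induced by stress and injury, stood at 5.12, 5.64, 4.76 and 5.74 in non-transgenic samples. Its transgenic samples ran from 7.31 over 7.49 to 7.80, above all of those. Above the filter in 3 of 4 non-transgenic samples, Sprr1a rose at least 4.40-fold (limma adjusted p = 5.50e-06). The classical envelope proteins were dim: involucrin (Ivl), envoplakin (Evpl) and profilaggrin (Flg) were below 5 on every array, with means over all samples of 3.44, 3.93 and 3.13, and loricrin (Lor) averaged 4.95 and 4.86. Periplakin (Ppl) differed by 0.26 (SE 0.14) and did not pass (limma adjusted p = 0.172).

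The 9 tested envelope genes that did not pass differed by between -0.22 and 0.26. They include the late envelope genes Lce1h, Lce1a2, Lce3b, Lce3c, Lce1d, Lce1i and Lce1f, which are near copies of each other, so that their probe sets may share RNA. Lce1i was without overlap between the groups (5.26 ± 0.04 and 5.17 ± 0.06) but its difference of -0.09 did not pass (limma adjusted p = 0.288). Of the envelope genes, 26 share a chromosome with loricrin, and 9 of these were tested with Sprr1a the only one past the threshold. Sprr3, the neighbour of Sprr1a on the chromosome, was at 5.56 ± 0.07 and 5.55 ± 0.02. Sprr2a copies were left out because the annotation gives their 3 probe sets several genes each, and the brightest of these averaged 6.13 and 6.14.

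Upstream sequences of 4 members that rose at least 2-fold are shown because these genes shared a direction in the same samples. RefSeq promoters (GRCm38.p6) were at hand for 6 of the 11 members that rose and for 56 of all members. The 250 bases before the annotated start were searched on both strands in all 6, with those of Marveld2 and Cldn10 not printed, for the AP-1 motif TGACTCA, the TATA box TATAAA, the GC box GGGCGG, the ETS motif AGGAAG and the Grhl motif AACCNGTT, and matches are in capitals.

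Sprr1a (chr3:92485882-92486131, minus strand): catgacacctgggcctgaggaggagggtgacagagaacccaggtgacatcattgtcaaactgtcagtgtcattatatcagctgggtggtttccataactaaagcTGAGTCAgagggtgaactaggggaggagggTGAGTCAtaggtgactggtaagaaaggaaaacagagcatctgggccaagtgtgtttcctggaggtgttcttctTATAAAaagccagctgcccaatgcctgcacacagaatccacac
Tgm1 (chr14:55713493-55713742, minus strand): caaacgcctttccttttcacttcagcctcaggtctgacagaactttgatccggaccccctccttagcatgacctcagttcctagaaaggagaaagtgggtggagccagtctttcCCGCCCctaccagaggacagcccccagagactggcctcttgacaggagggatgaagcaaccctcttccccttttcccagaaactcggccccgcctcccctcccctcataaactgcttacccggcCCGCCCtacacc
Cldn2 (chrX:139800558-139800807, plus strand): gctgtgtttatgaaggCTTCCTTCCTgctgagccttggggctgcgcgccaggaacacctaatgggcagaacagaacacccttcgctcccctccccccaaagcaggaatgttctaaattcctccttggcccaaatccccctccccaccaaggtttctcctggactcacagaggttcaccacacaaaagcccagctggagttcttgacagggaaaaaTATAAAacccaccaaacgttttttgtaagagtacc
Elf3 (chr1:135258473-135258722, minus strand): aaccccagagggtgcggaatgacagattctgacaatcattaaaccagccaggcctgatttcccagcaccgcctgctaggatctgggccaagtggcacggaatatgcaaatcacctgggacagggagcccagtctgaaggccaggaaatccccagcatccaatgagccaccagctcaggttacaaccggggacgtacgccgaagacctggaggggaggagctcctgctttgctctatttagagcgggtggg

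Sprr1a held an AP-1 match starting 146 and another 116 bases before the start, and a TATA match starting 43 bases before it. Of the 6 promoters of members that rose, 1 held AP-1, as did 4.43% of all 27025 promoters of the same length and 10 of the 56 of members. Cldn2 held a TATA match 35 bases before the start and 2 overlapping ETS matches. TATAAA was in 3 of the 6 and in 13.0% of all promoters, and in 17 of the 56. Tgm1 held GC boxes 136 and 12 bases before its start, a motif in 2 of the 6, in 16 of the 56 and in 32.9% of all promoters. Marveld2 held a TATA, a GC box and an ETS match, and Elf3 and Cldn10 held none of these letters. Tgm1, Marveld2 and Cldn10 had 2 promoter entries each, of which only the first was searched. The TATA match of Marveld2 started 223 bases before the start and lay on the opposite strand, unlike those of Sprr1a and Cldn2. AGGAAG was in 2 of the 6, in 22 of the 56 and in 29.2% of all promoters. AACCNGTT was in 0 of the 6, in 1 of the 56 and in 1.71% of all promoters. A match is a description of letters and no evidence of binding.

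The direct neighbours on the chromosome were read for the 13 members past the threshold, from RefSeq gene order. Of 20 neighbours with a probe set, 13 were tested. Rnpep, beside Elf3, changed from 8.04 to 9.39 (limma adjusted p = 0.00533), Rad17, beside Marveld2, from 10.28 to 10.62 (0.0114) and Dzip1, beside Cldn10, from 4.20 to 5.37 (3.25e-05). Dzip1 was above log2 5 on only 5 arrays, and its non-transgenic mean lay below that level. It could thus pass the filter only with the help of transgenic samples. The other 10 tested neighbours did not pass, among them Tinf2 and Rabggta on both sides of Tgm1. With 37.2% of all genes tested past the threshold, 3 of 13 is not above that share. These neighbours, like Cldn10, Esrp2 and Marveld3 above, were named after their values were seen.

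Other genes of epithelia were followed in 4 lists that held 61 tested genes outside the members, of which 16 rose (26.2%) and 15 fell (24.6%), where 18.9% and 18.3% of all genes tested did. These lists, like the members, were chosen with earlier results of these data known, so the shares of each list are a description and no test. The tested genes include 4, Amotl2 among them, that lay below the filter in every non-transgenic sample and could pass it only through the transgenic ones. In tight junction scaffold and polarity genes, 3 of 29 tested rose (10.3%) and 10 fell (34.5%), with a median change of -0.17. Cgn, or cingulin, which ties ZO proteins to myosin, fell from 9.79 ± 0.08 (SD, n = 4) to 8.66 ± 0.06 (SD, n = 6) (limma adjusted p = 5.64e-07). Patj, a scaffold of the Crumbs polarity complex, fell from 9.38 to 8.10 (2.92e-04), and Lsr, which recruits tricellulin to cell corners, from 8.23 to 7.31 (1.30e-04). Amotl2 of the angiomotin family rose at least 2.00-fold from below the filter in all non-transgenic samples (8.85e-04), Prkci, an atypical protein kinase C, rose from 9.79 to 10.46 (0.00205) and Pard6g, its partner in the Par complex, from 9.28 to 9.85 (0.0234). Amotl2 and Prkci did not pass within the samples numbered 7 to 13 (adjusted p = 0.0512 and 0.0676). Pard6g no longer passed when non-transgenic replicate 2, 7 or 8 was left out (adjusted p from 0.0602 to 0.0738), nor within the samples numbered 1 to 6 (0.485).

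Of 5 tested desmosome and hemidesmosome partners, 1 rose and 1 fell (20.0% each), where 18.9% and 18.3% of all genes tested did. Perp, a membrane protein of desmosomes, rose from 5.81 ± 0.38 to 7.45 ± 0.20 (limma adjusted p = 2.19e-05). Plec, which encodes the linker plectin, fell from 5.91 to 5.63 (0.0250). Leaving out non-transgenic replicate 7 or 8 or transgenic replicate 4 or 5 ended the call of Plec (adjusted p from 0.0511 to 0.0690), as did either number range (0.152 and 0.133) and median centring (0.0917). Of 7 tested cornification partners, 1 rose (14.3%) and 2 fell (28.6%), against the same 18.9% and 18.3% of all genes tested. Scel, or sciellin, an envelope precursor, rose from 10.02 to 10.63 (1.67e-04), and the acid sphingomyelinase gene Smpd1 fell from 11.23 to 10.70 (2.34e-04). Sbsn, or suprabasin, fell from 9.38 to 8.74 (0.0186), but did not pass within the samples numbered 7 to 13 (0.168) or without transgenic replicates 12 and 13 (0.0586). The other 21 genes of that list were below the filter.

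Of 20 tested epithelial transcription factors and repressors, 11 rose (55.0%) and 2 fell, against 18.9% and 18.3% of all genes tested, with a median change of 0.50. These counts include 3 genes, Elf5, Snai1 and Ovol1, that lay below the filter in every non-transgenic sample and could pass it only through the transgenic ones. Elf5, an ETS factor of trophoblast and mammary epithelium, rose at least 6.05-fold from below the filter in all non-transgenic samples to 7.60 ± 0.75 (limma adjusted p = 4.08e-07). Gata3 rose from 6.44 to 8.69 (1.07e-07) and Tfap2a from 6.48 to 9.22 (1.12e-07), both known from epidermis and trophectoderm. Zfp750, a differentiation factor of keratinocytes, fell from 10.64 to 9.96 (3.66e-04) and Snai3 of the Snail family from 8.69 to 8.35 (0.0390). The list mixes activators with repressors, and those that rose include the repressors of epithelial genes Snai1 (at least 1.87-fold, 3.12e-05) and Zeb2 (at least 1.33-fold, 0.0201), named after their values were seen. For Snai3, leaving out non-transgenic replicate 2, 7 or 8, or transgenic replicate 4, 5, 6 or 13, ended the call (adjusted p from 0.0571 to 0.117), and it did not pass within either number range (0.203 and 0.147).

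**Figure D5:**
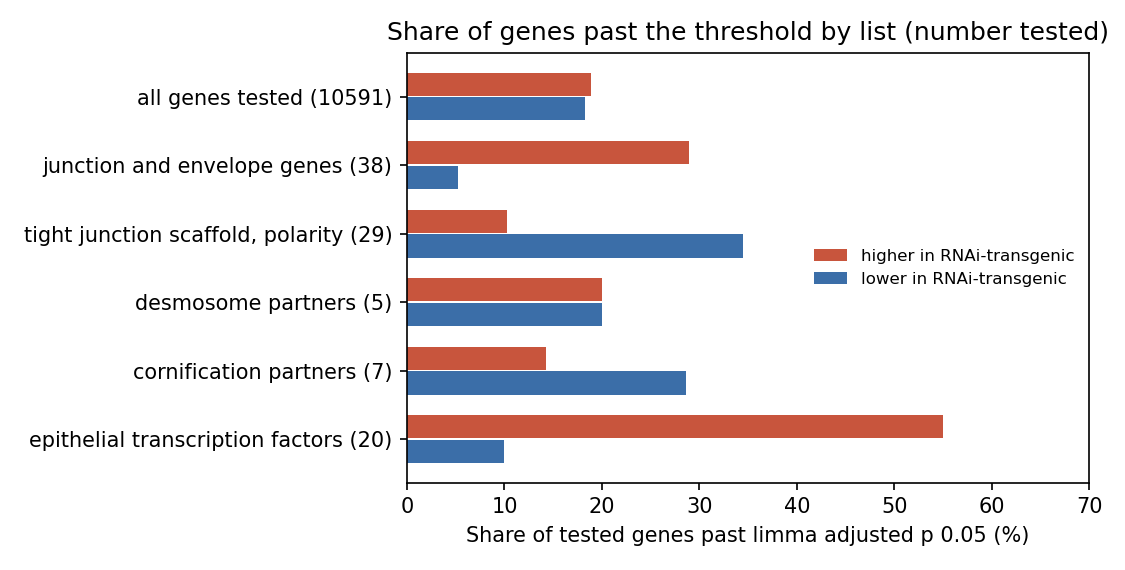
Share of tested genes that were higher (red) or lower (blue) in RNAi-transgenic samples at a limma adjusted p below 0.05 (x axis, percent) for all 10591 genes tested, the 38 tested members and 4 lists of other epithelial genes (y axis, number tested in brackets). Members were higher in 28.9% and lower in 5.26%, and the tight junction scaffold list at 10.3% and 34.5%. The members include 2 tested genes, the tight junction scaffold list 1 and the transcription factor list 3 that lay below the filter in every non-transgenic sample.

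Markers of other cells were read beside these results, and their counts stand against 18.9% of all genes tested that rose and 18.3% that fell. Of 6 keratinocyte markers, Krt1, Krt14 and Krt15 were below log2 5 on every array, and Krt5, Krt10 and Trp63 were tested and did not pass, with their summed intensity between 755.6 and 1128 in non-transgenic and between 727.5 and 1437 in transgenic samples. For 10 ovarian surface epithelium markers these ranges were 1123 to 1657 and 993.7 to 1351, with Krt7, Krt19, Lhx9, Msln and Muc16 below 5 on every array. Of the 3 of them tested, 1 was higher and 1 lower. For 14 granulosa markers they were 1767 to 1986 and 1713 to 2797, with 2 of 8 tested higher and Amh, Amhr2, Has2, Inhba and Ptgs2 below 5 on every array. For 8 blood and immune markers they were 3391 to 4229 and 2789 to 4451, with 1 of 3 tested higher, 1 lower and Cd68, Cd74, Hba-a1, Lyz2 and Ptprc below 5 on every array. For 2 other kinds the summed ranges of the groups did not overlap. For 7 trophectoderm markers the ranges were 213.9 to 239.8 and 934.4 to 1456, all 4 tested ones rose (Cdx2, Krt8, Gata3 and Elf5), and Krt18 and Tead4 were below 5 on every array. Elf5 was tested only through its transgenic level, and Elf5 and Gata3 are also in the transcription factor list. For 10 stroma and vessel markers the ranges were 603.8 to 704.6 and 785.5 to 1060, with 4 of 6 tested higher, 1 lower and Col1a2, Pdgfra and Pecam1 below 5 on every array. The trophectoderm and the stroma sums each had a two-sided exact permutation p of 0.00476, the smallest that 210 splits can give. The same test gave 0.805 for the oocyte sum, 0.281 for granulosa, 0.0905 for ovarian surface, 0.852 for keratinocyte and 0.648 for blood and immune. Groups without overlap were common in these data, at 28.0% of all single genes tested, with 14.8% higher in transgenic samples. The part of these cells in the changes of the members was not tested.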

How the data were processed

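RNA of 50 oocytes per mouse was measured on 10 arrays. The values deposited by the authors are linear intensities of probe sets, made with GCRMA per the submitters' processing notes, which give no version. GCRMA models background from probe sequence, brings the arrays to 1 scale and leaves dim probe sets near a floor. These deposited intensities were put on the log2 scale without new normalization. Of 45101 probe sets, 64 were controls. By the platform annotation, 34958 named 1 gene and 932 several, and 9211 were unlisted. The number of arrays limits the precision.

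Probe sets above log2 5 (an intensity of 32) in at least 4 arrays were kept, a gene was read from its brightest one, and 10591 genes were tested with limma 3.58.1 (lmFit, eBayes with a trend) in R 4.3.3, with Benjamini-Hochberg adjustment over all genes and a threshold of 0.05. Where samples of the dimmer group lay below log2 5 they were set to it and the fold is given as at least that large. The fit was checked on simulated data. Named are Bnc1, members past the threshold with a mean above log2 7, the 8 brightest tested members that did not pass, up to 3 higher and 3 lower genes of each epithelial list, and other members by role with their values. Members and lists were chosen with earlier results of these data known. Alternatives were other filters (none, or log2 7), normalizations (quantile, median), log2(value + 16), moderation, weights, covariates, subsets of samples, choices of probe set and thresholds; a Gapdh covariate and leaving out transgenic replicates 12 and 13 together were added after seeing the data. Figures were drawn with matplotlib 3.10.9.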

Additional observations from a re-analysis of the deposited data

Results flagged for a closer look

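In 38 named genes, 76 groups of samples were examined for a sample far from the others, and 2 such samples were found among the members, where chance gives about 1 in 20 groups. Cldn10 was at log2 5.69 in transgenic replicate 5, while the other transgenic samples lay between 5.29 and 5.42. Pkp2 was at 9.01 in non-transgenic replicate 2, while the other non-transgenic samples lay between 8.24 and 8.34. Pkp2 kept its call without that sample.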

How the results depend on the processing

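No paired analysis was possible because the groups share no replicate number. Elf3, Cldn9, Cldn8, Sprr1a, Dsg1a and Tgm1 kept direction and call in every alternative run, and no member past the threshold turned its direction. Of these, Tgm1 had passed the filter through the transgenic samples alone. Members higher numbered 7 with the stricter filter and 6 with Holm adjustment, against 11, and 10 to 12 when 1 sample was left out. Members lower numbered 4 with array weights, 1 within samples 1 to 6, 4 within samples 7 to 13, 1 at an adjusted p below 0.01, 0 at least 2-fold and 0 with Holm, against 2, and 2 to 4 when 1 sample was left out, with 4 without non-transgenic replicate 1. Other epithelial genes higher numbered 10 at least 2-fold and 7 with Holm, against 16. Those lower numbered 9 within samples 1 to 6, 7 within samples 7 to 13, 3 at least 2-fold and 1 with Holm, against 15. With each probe set by itself, 29 probe sets of these genes were higher and 23 lower. These are counts of probe sets, several of which can belong to 1 gene, and not of genes. All genes higher numbered 1207 within samples 1 to 6, 1241 within samples 7 to 13, 702 at least 2-fold and 490 with Holm, against 1998; all genes lower numbered 707, 1024, 249 and 141, and 1104 at an adjusted p below 0.01, against 1943. The cause of these moves was not tested beyond fewer samples or stricter thresholds. Quantile normalization and median centring moved the median of all genes to -0.07 and 0.01. The Gapdh covariate left 12 members higher and 2 lower and other epithelial genes at 14 and 11, ending the calls of Pard6g (adjusted p = 0.0725), Plec (0.111) and Snai3 (0.169). Leaving out transgenic replicates 12 and 13 left 10 and 2 members and 15 and 12 other epithelial genes. Values near log2 5 are limited by signal over background.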
